A study of Mus musculus with 2 samples.

Results

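Hox genes were compared between cultured bone marrow mesenchymal stem/progenitor cells labelled as floxed for or deficient in PPARg, the nuclear receptor that drives fat cell formation. The members were the 38 Hox genes on a list made for this work, 10 in HoxA, 10 in HoxB, 9 in HoxC and 9 in HoxD. All 38 were found among the 25707 loci of the files. Total RNA was sequenced in 2 libraries, both of cells cultured in DMEM and FBS from CD-1 mice 3 months old. One has the genotype PPAR-flox (title PPAR-f/f) and the other PPAR KO, here called floxed and deficient. The sources used here do not name the agent that removed Pparg, the exons it affected, the bone the marrow came from or the number of animals. With 1 library per group no difference below has a replicate check, no test was possible, and any batch and the genotype cannot be told apart.

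Hox genes encode homeodomain transcription factors that lie in 4 clusters. Within a cluster they are numbered in order along the chromosome, and genes of the same number in different clusters are paralogs. Low-numbered genes are active towards the head and high-numbered ones towards the tail and the tips of the limbs, and adult stromal cells keep a part of this pattern, which marks where in the body they came from. PBX and MEIS proteins are DNA-binding partners of Hox proteins, Polycomb proteins keep silent clusters closed, Trithorax proteins keep active ones open, and retinoic acid is an early signal for Hox activation.

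Levels are FPKM, fragments scaled by transcript length and by library total, summed over the transcripts of a gene. They are scaled by length, so genes can be compared with each other. Differences are log2(FPKM + 1), deficient minus floxed, a scale on which low genes differ by less than the ratio of their FPKM. As deposited, the median of the 10650 kept loci (at least 1 FPKM in at least 1 library, longest transcript of at least 300 nt) was itself higher in the deficient library, by 0.86 on that scale, or 1.81-fold. Log2 folds are given relative to that median locus unless they are called as deposited, and a gene is called higher or lower by size alone, at 2-fold. A gene between -0.86 and 0 on the centred scale is thus higher in the deficient library as deposited. Pparg, the targeted gene, lay on chromosome 6 from 115310824 to 115440419 (mm9) and was at 6.86 FPKM in the floxed and 1.39 FPKM in the deficient library (-2.58, and -1.72 as deposited). The deleted exons are not known here, so this checks only the summed level. In whole-culture RNA, fewer cells of a type and less RNA per cell cannot be told apart.

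Both libraries had transcripts of HoxA and HoxC genes, the named HoxB and HoxD genes were listed at or near 0, and the balance between HoxA and HoxC differed. Summed FPKM of HoxA genes was 53.9 in the floxed and 52.7 in the deficient library. Summed FPKM of HoxC genes was 6.002 in the floxed and 36.0 in the deficient library. HoxA thus made up 89.9% of all Hox FPKM in the floxed and 59.3% in the deficient library, and HoxC 10.02% and 40.5%. The ratio of HoxC to HoxA within a library does not depend on how the libraries are scaled. It was 0.111 in the floxed and 0.683 in the deficient library, a 6.13-fold difference. Without Hoxc9 it differed by 4.70-fold, and without Hoxa10 by 7.74-fold. This ratio was chosen after the values were seen.

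**Figure D1:**
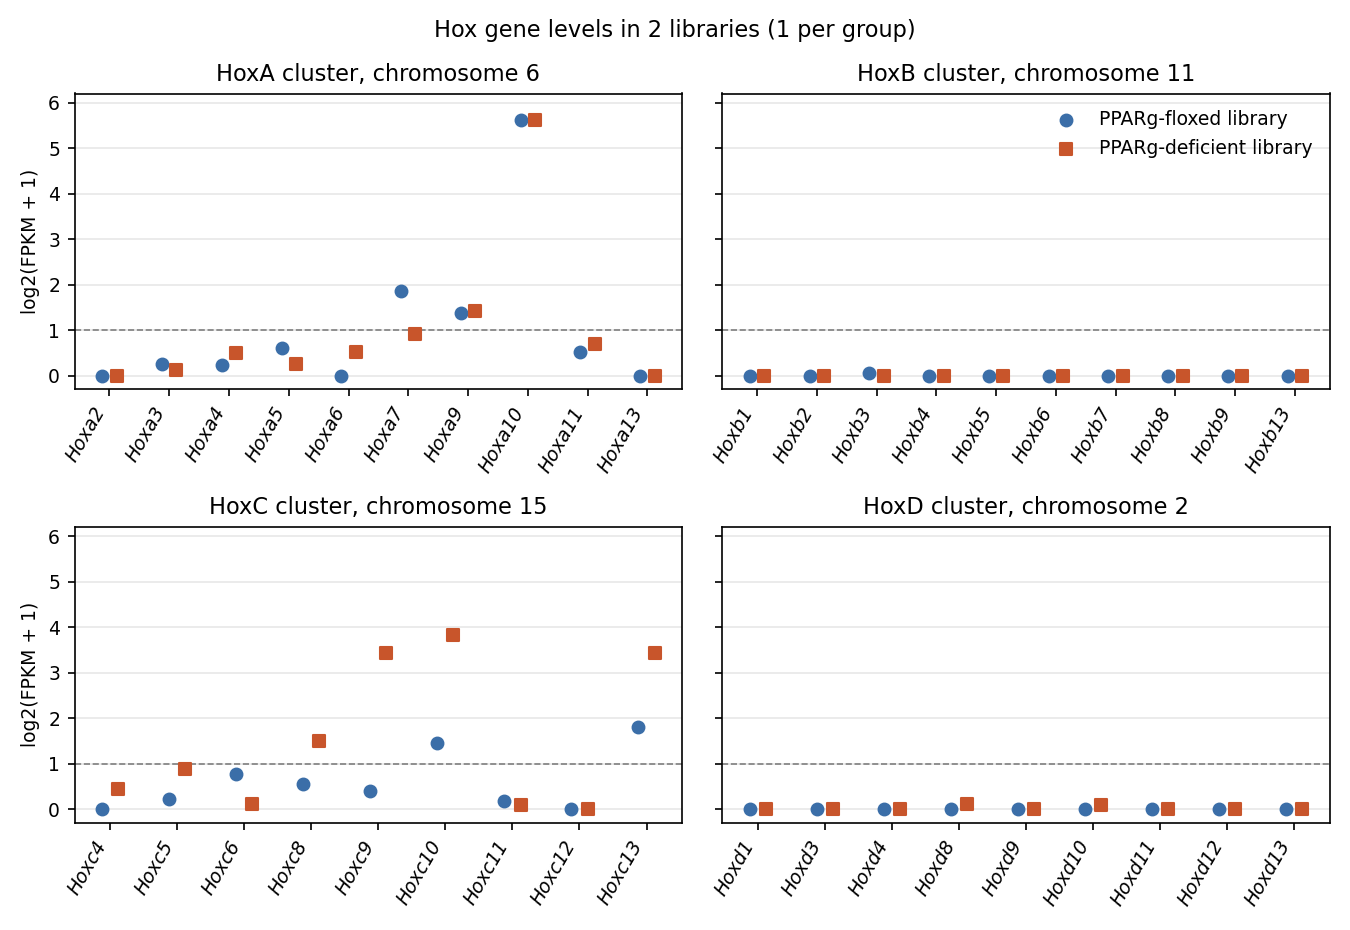
Level of each of the 38 Hox genes as log2(FPKM + 1), 1 panel per cluster with genes in numerical order, circles for the floxed and squares for the deficient library (1 library each, no error bars); the dashed line marks 1 FPKM. Hoxa10 is the highest gene in both, Hoxc9, Hoxc10 and Hoxc13 stand higher in the deficient library, and no HoxB or HoxD gene reaches the line.

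Of the 38 genes, 7 reached 1 FPKM in at least 1 library: Hoxa7, Hoxa9, Hoxa10, Hoxc8, Hoxc9, Hoxc10 and Hoxc13. Hoxa9, Hoxa10, Hoxc10 and Hoxc13 reached it in both. Hoxa7 passed only through the floxed library, and Hoxc8 and Hoxc9 only through the deficient library, so these 3 had to differ. Relative to the median locus, 2 genes were higher (Hoxc9 and Hoxc10) and 1 was lower (Hoxa7), where 10.3% of all kept loci were higher and 11.6% lower. As deposited, 3 were higher (Hoxc13 in addition) and 0 lower, where 42% of kept loci were higher and 4.57% lower. The median of the 7 genes was 0.10 relative to the median locus and 0.95 as deposited, where all kept loci had 0 and 0.86. It was -0.11 with a pseudocount of 5 FPKM. With 7 genes, and 3 of them passing through 1 library, these counts and the median describe the genes and were not tested.

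**Figure D2:**
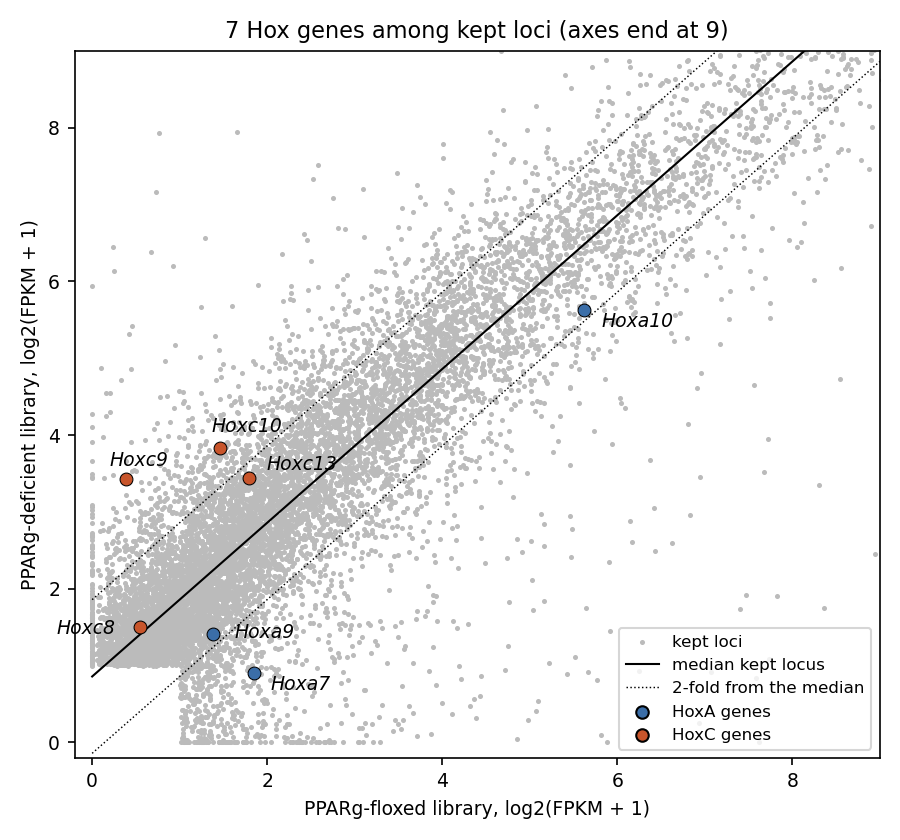
Each grey point is a kept locus, placed by log2(FPKM + 1) in the floxed (x axis) and the deficient library (y axis); the solid line marks the median locus, the dotted lines 2-fold from it, and large points are the 7 Hox genes with at least 1 FPKM. Hoxc9 and Hoxc10 lie above the upper dotted line, Hoxa7 below the lower one, and Hoxa10 and Hoxa9 between the median and the lower line.

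Hoxa10, a group 10 gene that patterns the lower trunk and the upper part of the limb, was the highest Hox gene in both libraries. It was at 48.3 FPKM in the floxed and 48.4 FPKM in the deficient library, 80.7% and 54.5% of all Hox FPKM. It lay above 89.3% of kept loci in the floxed and above 83.1% in the deficient library. Its log2 fold was 0.0014 as deposited and -0.86 relative to the median locus, so its level was nearly equal as deposited and its direction depends on the scaling. It passed 2-fold lower with upper-quartile scaling (-1.07) and with a pseudocount of 0.1 FPKM (-1.14). The gene is on the minus strand of chromosome 6, from 52180949 to 52190921 (mm9), with 4 transcripts of 2 exons.

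The reference gives Hoxa10 more than 1 start site, and the deposited transcripts separate them, so the bases before both RefSeq starts are shown. The starts lie 5915 bases apart in RefSeq and the same 5915 bases apart in the deposited transcripts. Each line gives the 250 bases before a start on the minus strand, 5′ to 3′, from RefSeq (GRCm38.p6), the distal one from chr6:52240855-52241104 and the proximal one from chr6:52234940-52235189. Capitals mark matches, on either strand, to TATAAA and CCAAT.
Hoxa10 distal start: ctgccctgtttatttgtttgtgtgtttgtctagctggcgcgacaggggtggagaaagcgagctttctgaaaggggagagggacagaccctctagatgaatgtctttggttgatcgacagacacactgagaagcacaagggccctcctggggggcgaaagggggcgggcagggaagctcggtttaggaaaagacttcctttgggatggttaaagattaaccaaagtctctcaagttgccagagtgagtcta
Hoxa10 proximal start: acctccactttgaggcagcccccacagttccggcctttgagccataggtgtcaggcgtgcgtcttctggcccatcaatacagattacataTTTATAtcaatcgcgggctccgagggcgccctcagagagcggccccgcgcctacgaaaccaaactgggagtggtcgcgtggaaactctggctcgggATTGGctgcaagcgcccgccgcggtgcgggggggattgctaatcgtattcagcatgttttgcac
The proximal stretch held 1 match to each, and the distal stretch held none. Among 32851 RefSeq promoters of this length, 12.4% held TATAAA and 33.8% held CCAAT. Neither stretch held TGATNNAT, a pattern bound by Hox and PBX proteins (in 7.68% of all promoters), or AGGTCA, the core site of nuclear receptors such as PPARg (in 14.02%). The proximal stretch had 20 CpG pairs and the distal one 7, beside a median of 6 over all promoters.

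Nearly all Hoxa10 signal with an annotated start came from the distal one. The transcript that starts there was at 36.3 FPKM in the floxed (deposited bounds 33.1 to 39.4) and 35.7 FPKM in the deficient library (32.7 to 38.8). The transcript from the proximal start was at about 0 FPKM in the floxed library (upper bound 0.093) and 0.60 FPKM in the deficient library (0.18 to 1.03). Of the 4 transcripts only the proximal one had bounds that did not overlap between the libraries. A second transcript that starts near the distal site was at 4.73 (3.40 to 6.05) and 3.02 FPKM (1.99 to 4.05). A transcript of 2212 nt that starts at 52183390, with an intron not matched to the reference, was at 7.32 (5.67 to 8.98) and 9.05 FPKM (7.29 to 10.8). Transcripts from the distal site made up 84.9% of Hoxa10 FPKM in the floxed and 80.1% in the deficient library.

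Hoxa9, the neighbour of Hoxa10 and a regulator of blood and trunk development, was at 1.61 FPKM in the floxed (1.13 to 2.10) and 1.67 FPKM in the deficient library (1.18 to 2.15). Like Hoxa10 it was nearly equal as deposited (0.03) and below the median locus when centred (-0.83). Hoxa7, a trunk gene on chromosome 6 from 52164490 to 52168572 (mm9), was at 2.60 FPKM in the floxed and 0.87 FPKM in the deficient library. Its log2 fold was -1.80, and -0.94 as deposited, which is under 2-fold only with 1 FPKM added to both values. Its most abundant transcript was at 1.76 (0.94 to 2.57) and 0.49 FPKM (0.028 to 0.96), bounds that overlap narrowly. That transcript begins at 52166886 with a first exon of 40 nt, while the transcript from the annotated start at 52168572 was at 0.074 and 0.072 FPKM. Of the 7 genes, 4 had bounds of the most abundant transcript that lay apart and were higher in the deficient library as deposited, and 0 had bounds apart and lower. Over all kept loci these shares were 63.6% and 8.74%, so bounds that lie apart were about as common among the 7 genes as elsewhere.

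**Figure D3:**
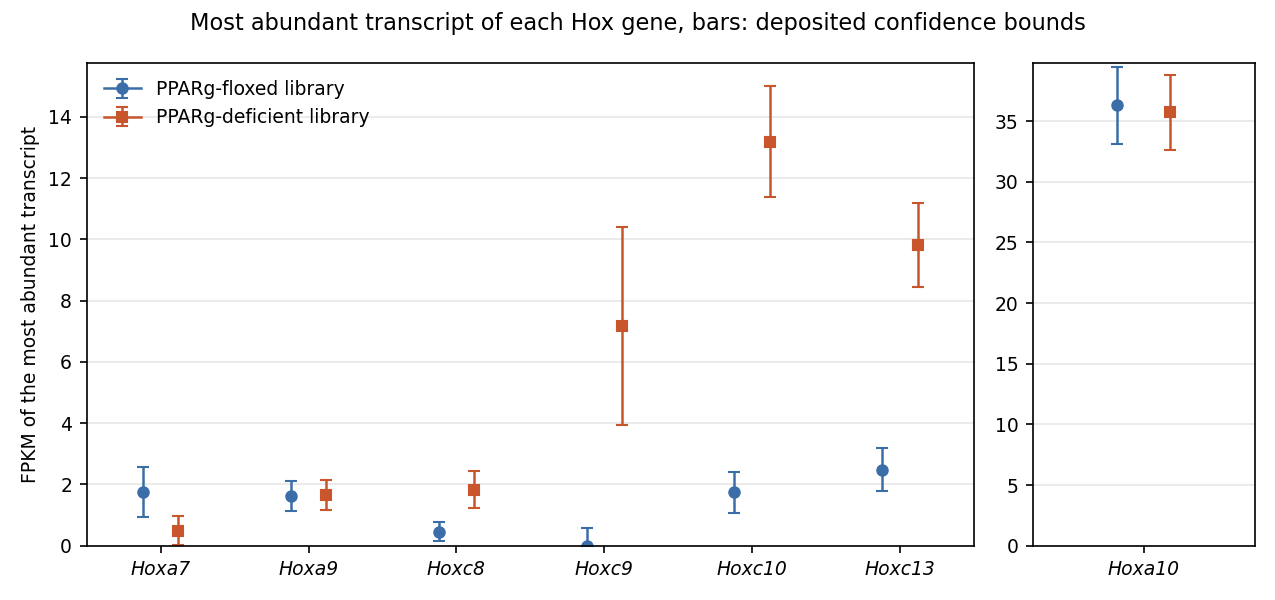
FPKM of the most abundant transcript of each of the 7 genes in the floxed (circles) and deficient library (squares), with the confidence bounds deposited by the authors as bars; Hoxa10 has its own axis. On the deposited scale, where 63.6% of kept loci have bounds apart and higher in the deficient library, bounds lie apart for Hoxc8, Hoxc9, Hoxc10 and Hoxc13 and overlap for Hoxa7, Hoxa9 and Hoxa10.

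The other 7 HoxA genes stayed under 1 FPKM. Hoxa11, a gene of the middle limb segment, was at 0.43 and 0.63 FPKM. Hoxa5 was at 0.53 and 0.19 FPKM, Hoxa4 at 0.17 and 0.40 FPKM, Hoxa3 at 0.19 and 0.091 FPKM. Hoxa6 had no value above 0 in the floxed library but 0.43 FPKM in the deficient one. Hoxa2, a hindbrain and branchial arch gene, and Hoxa13, a gene of the hand and foot plate, were listed at 0 in both. The antisense transcripts Hoxa11os (0.61 and 0.26 FPKM) and Hoxaas3 (0.17 and 0.17 FPKM) overlap Hoxa11, and Hoxa3, Hoxa5 and Hoxa6. No source used here says how strand was handled, so reads of these pairs cannot be told apart. Of 13 noncoding RNAs listed for the clusters, 3 were found (these and Hoxd3os1, listed at 0) and 0 reached 1 FPKM.

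In HoxC, Hoxc10, a marker of hindlimb and lumbosacral position, was at 1.74 FPKM in the floxed (1.07 to 2.41) and 13.2 FPKM in the deficient library (11.4 to 15.01). The log2 fold was 1.51 (2.37 as deposited), and the mean read depth of its transcript was 2.46 and 19.1 reads per base. It lay above 36.9% of kept loci in the floxed and above 64.4% in the deficient library. Hoxc10 therefore stood at 0.0361 of the Hoxa10 level in the floxed and 0.273 in the deficient library. It lies on chromosome 15 from 102797227 to 102802328 (mm9).

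Hoxc13, known for its role in hair and nail formation, was at 2.47 FPKM in the floxed (1.77 to 3.17) and 9.82 FPKM in the deficient library (8.45 to 11.2). Its log2 fold was 0.78, under 2-fold, and 1.64 as deposited, above it. It lies on chromosome 15 from 102751562 to 102759245 (mm9). The other group 13 genes, Hoxa13, Hoxb13 and Hoxd13, were listed at 0 in both libraries.

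Hoxc9, a trunk gene that sets motor neuron identity in the thoracic spinal cord, was at 0.31 FPKM in the floxed and 9.81 FPKM in the deficient library. The log2 fold was 2.19 (3.05 as deposited), the largest of the 7. Hoxc9 lay above 6.15% of kept loci in the floxed and above 58.7% in the deficient library, and its ratio to its paralog Hoxa9 was 0.191 and 5.89. The locus spans 102802718 to 102814875 on chromosome 15 (mm9). Its signal did not come from the annotated transcript, which was listed at 0 in both libraries with an upper bound of 0.15 and 0.14 FPKM. The locus has 5 transcripts that share a last exon of 550 nt. The transcript that starts at 102814097, with a first exon of 29 nt, was at about 0 FPKM in the floxed (upper bound 0.59) and 7.17 FPKM in the deficient library (3.94 to 10.4). The transcript that starts at 102814209, with a first exon of 11 nt, had the opposite order, with 0.31 FPKM in the floxed (0 to 0.92) and about 0 FPKM in the deficient library (upper bound 0.60), and it held nearly all of the floxed Hoxc9 value. Another 2 transcripts start upstream, the first 389 bases past the end of Hoxc10, and summed to 0 FPKM in the floxed and to 2.64 FPKM in the deficient library. Their lower bounds in the deficient library were 0 and 0.18 FPKM, so their signal is the less certain share of Hoxc9. The homeobox ends at base 215 of this last exon, so it lies inside the part that all 5 transcripts share.

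Hoxc8, a gene of the thoracic trunk on chromosome 15 from 102820970 to 102824685 (mm9), was at 0.46 FPKM in the floxed and 1.83 FPKM in the deficient library. Its FPKM differed by more than 2-fold, but with 1 FPKM added Hoxc8 was just short of 2-fold as deposited (0.95). It was near the median locus when centred (0.10). Of the 7 it alone was named only by the length of its intron and its distance from introns of other HoxC genes. Lower genes of the cluster did not all point one way. Hoxc5 was at 0.17 and 0.85 FPKM, and Hoxc4 was listed at 0 and was at 0.36 FPKM. Hoxc6, a gene of the forelimb and upper trunk level, had the opposite order, with 0.72 FPKM in the floxed (0.24 to 1.19) and 0.077 FPKM in the deficient library (upper bound 0.23). Hoxc11 was at 0.13 and 0.062 FPKM, and Hoxc12 was listed at 0 in both.

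The homeoboxes of Hoxa10 and of the 3 HoxC genes that differed most show how far these genes can be told apart by sequence. Of the 3, only Hoxc10 is a paralog of Hoxa10. They are the 180 bases that encode the homeodomain, 5′ to 3′, from GENCODE M21 transcripts (GRCm38), and capitals mark bases that differ from Hoxa10. Hoxa10 is from chr6:52232554-52232733 (minus strand), Hoxc10 from chr15:102970848-102971027, Hoxc9 from chr15:102983930-102984109 and Hoxc13 from chr15:102927210-102927389 (plus strand).
Hoxa10: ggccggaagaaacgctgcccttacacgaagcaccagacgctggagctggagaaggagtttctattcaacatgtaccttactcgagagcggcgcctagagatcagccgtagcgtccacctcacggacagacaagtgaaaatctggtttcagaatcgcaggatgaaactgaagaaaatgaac
Hoxc10: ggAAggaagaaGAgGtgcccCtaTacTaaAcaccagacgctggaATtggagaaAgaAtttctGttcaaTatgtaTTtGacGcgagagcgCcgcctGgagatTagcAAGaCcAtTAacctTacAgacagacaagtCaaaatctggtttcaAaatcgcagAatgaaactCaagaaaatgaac
Hoxc9: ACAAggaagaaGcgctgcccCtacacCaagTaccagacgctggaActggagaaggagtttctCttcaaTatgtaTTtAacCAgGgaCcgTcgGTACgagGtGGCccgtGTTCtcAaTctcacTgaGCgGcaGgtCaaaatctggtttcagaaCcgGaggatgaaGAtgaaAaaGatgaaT
Hoxc13: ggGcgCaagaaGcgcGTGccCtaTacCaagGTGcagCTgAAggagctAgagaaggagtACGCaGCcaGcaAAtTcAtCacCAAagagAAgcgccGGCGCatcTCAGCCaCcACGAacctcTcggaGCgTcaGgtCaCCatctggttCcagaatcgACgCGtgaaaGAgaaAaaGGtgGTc
Hoxc10 matched Hoxa10 at 145 of 180 bases (80.6%), Hoxc9 at 134 (74.4%) and Hoxc13 at 110 (61.1%). The paralogs Hoxc9 and Hoxa9 matched at 149 bases (82.8%), the closest pair of the 7 genes. Over whole transcripts, the longest stretch that Hoxa10 shared letter for letter with another member was 21 nt (with Hoxb2). For Hoxc13 it was 21 nt (Hoxd4), for Hoxc9 50 nt (Hoxb9), for Hoxa7 47 nt (Hoxb4 and Hoxa6) and for Hoxa9 31 nt (Hoxc9 and Hoxc5). Hoxc10 shared 168 nt with an annotated Hoxc5 transcript that overlaps it on the chromosome, and 23 nt with the next member, Hoxb9. The sources used here do not state the read length.

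The named HoxB and HoxD genes were listed at or near 0 in both libraries. Of 10 HoxB genes 9 were listed at 0 in both, and Hoxb3 had 0.035 FPKM in the floxed library only. Of 9 HoxD genes 7 were listed at 0 in both, while Hoxd8 (0.088 FPKM) and Hoxd10 (0.067 FPKM) had a value in the deficient library only. In all, 19 of the 38 genes were listed at 0 in both libraries. A 0 here can be a failed estimate, and the depth behind it is unknown. Between Hoxb13 and Hoxb9, an unnamed single-exon locus with no strand was at 15.1 FPKM in the floxed and 194 FPKM in the deficient library. It was not matched to a gene, so it gives no level of a HoxB gene.

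By number along the cluster, FPKM was concentrated in group 10 in both libraries. Group 10 summed to 50.1 FPKM in the floxed and 61.6 FPKM in the deficient library. Group 9 summed to 1.92 and 11.5 FPKM, group 13 to 2.47 and 9.82 FPKM, and group 11, between them, to 0.56 and 0.69 FPKM, while group 12 was at 0 in both. Group 7 was at 2.60 and 0.87 FPKM, and groups 1 to 6 each stayed at or under 1.04 FPKM in both. The pattern along the cluster was thus not a steady rise towards the tail end.

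**Figure D4:**
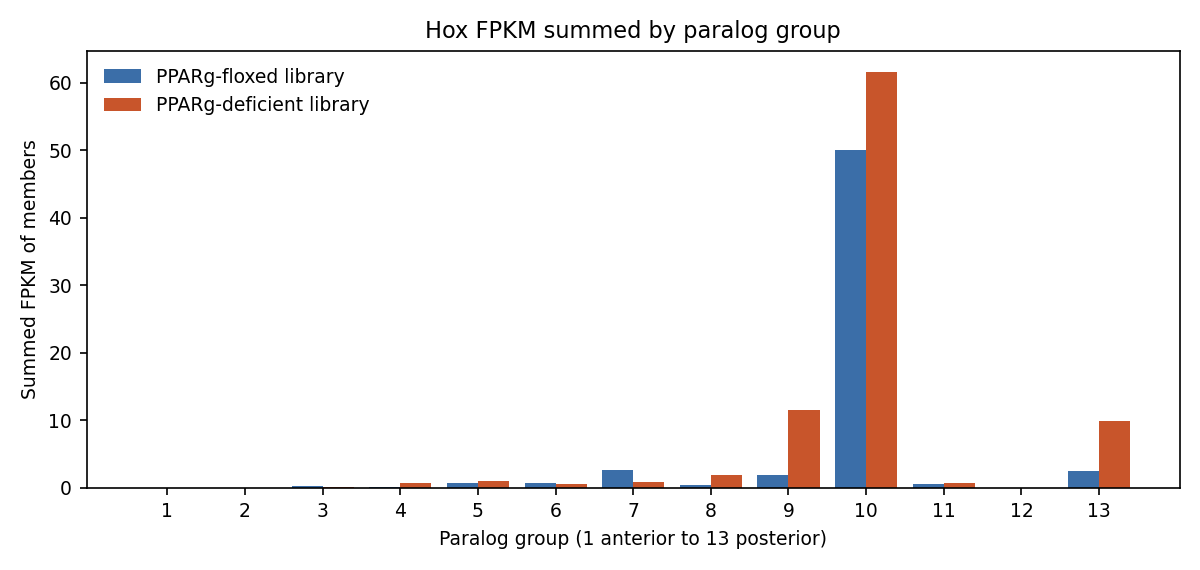
Summed FPKM of the members of each paralog group (x axis, 1 to 13) in the floxed and deficient library, as bars from 0, 1 library each. Group 10 is highest in both, at 50.1 and 61.6 FPKM, and groups 9 and 13 are higher in the deficient library.

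Partners and regulators of Hox genes were taken from lists written with earlier results of these data known. Beside the counts of these and later lists, 10.3% of all kept loci were higher and 11.6% lower (42% and 4.57% as deposited). Of 11 TALE genes, which encode the PBX, MEIS, PREP and TGIF partners or relatives, 6 reached 1 FPKM and 0 were called in either direction (2 higher and 0 lower as deposited). Pknox2 was at 0.28 and 3.49 FPKM (0.95), Tgif1 at 32.7 and 81.8 FPKM (0.44), Meis1 at 3.31 and 3.798 FPKM (-0.70) and Pbx3 at 0.74 and 1.53 FPKM (-0.32). Of 26 Polycomb genes found, 17 were kept, with 0 higher, 1 lower and a median of -0.02 (8 higher and 0 lower as deposited). The lower one was Rybp, a subunit of variant PRC1, at 10.7 and 7.02 FPKM (-1.40), while Eed, a core PRC2 subunit, was at 6.67 and 24.6 FPKM (0.88). No other Polycomb gene passed 2-fold relative to the median locus. Phc1 was at 1.69 and 1.87 FPKM (-0.77) and Pcgf5 at 4.19 and 4.64 FPKM (-0.74). Of 20 Trithorax and chromatin boundary genes 13 were kept, with 1 higher, 0 lower and a median of 0.01 (3 higher and 0 lower as deposited). The higher one was the cohesin gene Smc1a, at 36.6 and 138 FPKM (1.03). Its partner Smc3 was at 3.70 and 11.4 FPKM (0.53), Psip1 at 4.48 and 5.88 FPKM (-0.53) and Kat6a at 0.77 and 1.26 FPKM (-0.51).

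Genes of retinoic acid handling and early patterning ran from -2.29 to 5.42. Of 22 found 8 were kept, with 3 higher and 2 lower (5 and 1 as deposited). Crabp1, a retinoic acid binding protein gene, was at 2.16 and 244 FPKM (5.42), Crabp2 at 36.1 and 193 FPKM (1.53) and Aldh1a1, a retinaldehyde dehydrogenase gene, at 0.34 and 38.6 FPKM (4.03). Aldh1a3, another such enzyme gene, was at 2.96 and 0.46 FPKM (-2.29). The other lower gene was Egr2, at 2.16 and 1.32 FPKM (-1.31). The receptor genes Rara, Rarb and Rarg were under 1 FPKM in both libraries, with 0.27 FPKM in Rarg as the highest value, and were picked for mention after their values were seen. Whether retinoic acid had a part in the HoxC values was not tested.

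Other transcription factors of limb and regional identity gave 10 kept genes of 43 found, with 0 higher and 3 lower (3 and 1 as deposited) and a median of -0.51. Shox2, a gene of the upper limb segment, was at 6.14 and 1.79 FPKM (-2.22), Tbx15 at 3.35 and 1.32 FPKM (-1.76), and Gli3, a hedgehog pathway repressor gene of the limb bud, at 3.61 and 2.44 FPKM (-1.28). Dlx5 was at 1.47 and 1.24 FPKM (-0.999), just short of 2-fold. Neither library had a value above 0 for the forelimb gene Tbx5, and the hindlimb genes Tbx4 (0 and 0.039 FPKM) and Pitx1 (0.049 and 0.095 FPKM) were near 0. These 3 were picked for mention after their values were seen.

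Of 22 genes found that flank a Hox cluster, 14 were kept. Relative to the median locus 0 were higher and 1 was lower, with a median of 0.12 (6 higher and 0 lower as deposited). Over all kept loci 10.3% were higher and 11.6% lower, so a count of 0 in 14 genes says little. Snx10, beside HoxA, was at 24.8 and 17.3 FPKM (-1.35), Tax1bp1 at 16.9 and 46.3 FPKM (0.55), Atp5g3 at 38.9 and 143 FPKM (0.998, just short of 2-fold) and Lnpk, beside HoxD, at 2.48 and 3.58 FPKM (-0.46). Beside HoxC, Cbx5 was at 8.12 and 21.4 FPKM (0.44), Hnrnpa1 at 120 and 184 FPKM (-0.25) and Calcoco1 at 0.42 and 1.10 FPKM (-0.29), all 3 picked for mention by their place.

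Among 15 genes proposed elsewhere as responsive to Hox proteins, 6 were kept, with 1 higher and 3 lower (3 and 1 as deposited). Epha3, an ephrin receptor gene, was at 2.88 and 0.21 FPKM (-2.54), Ncam1 at 110 and 77.2 FPKM (-1.37) and Runx2, the osteoblast transcription factor gene, at 6.96 and 4.87 FPKM (-1.30). Bmp4, which encodes a bone morphogenetic protein, was at 9.32 and 46.9 FPKM (1.36). Many regulators act on target genes such as these, and no link to a Hox gene was tested.

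**Figure D5:**
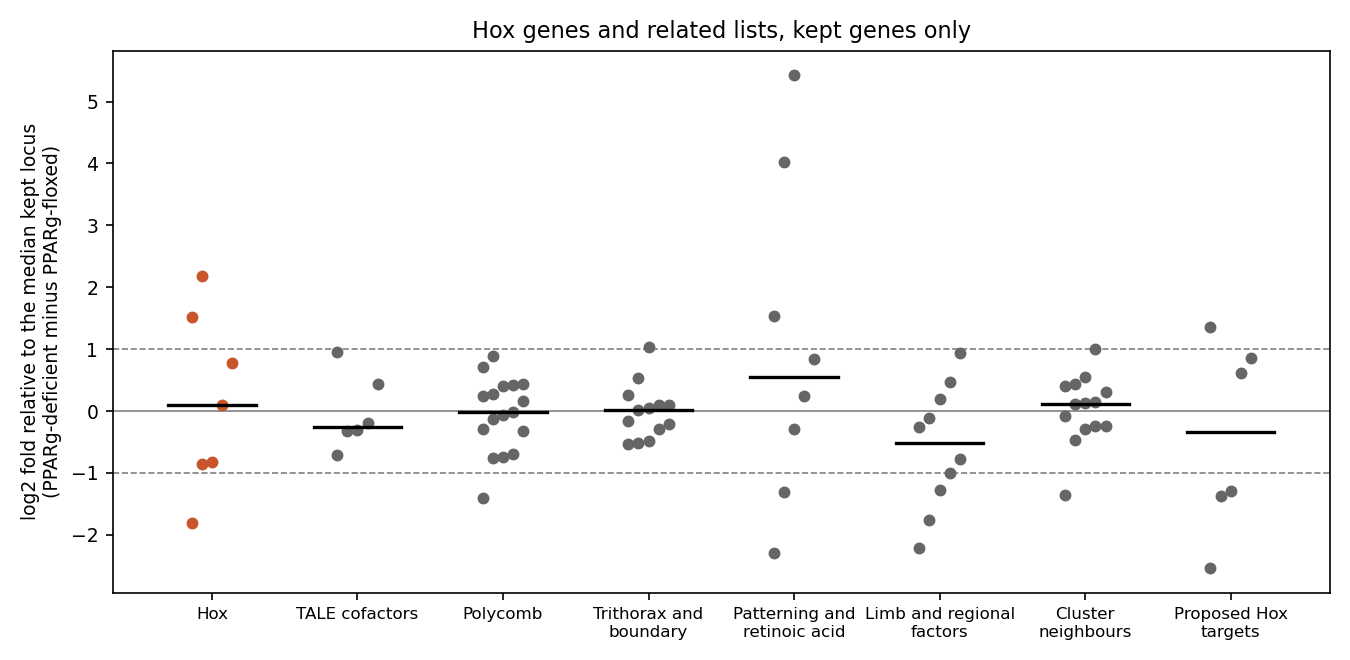
Log2 fold relative to the median kept locus (deficient minus floxed) for the kept genes of the Hox list and of 7 related lists, 1 point per gene, with a bar at each list's median and dashed lines at 2-fold. The Hox median is 0.10, beside medians of -0.02, 0.01 and 0.12 for Polycomb, Trithorax and neighbour genes. The medians of the other lists are -0.25 for TALE genes, 0.54 for patterning and retinoic acid, -0.51 for limb and regional factors and -0.35 for proposed Hox targets. Single genes spread in each list, from -1.80 to 2.19 for Hox and from -1.40 to 0.88 for Polycomb.

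The labelled cell type was checked on marker lists. Of 12 stromal markers all 12 were found and 9 were kept. The list summed to 1080 FPKM in the floxed and 1797 FPKM in the deficient library. The locus named Ly6a had 530 and 841 FPKM of this. That locus runs from 74825306 to 75069527 on chromosome 15 (mm9), and all its transcripts were summed. Transcripts of other genes may therefore be in its value and in the list sum. The 3 markers not kept stayed under 1 FPKM, with Thy1 at 0 and 0.42 FPKM, Eng at 0.034 and 0 FPKM and Lepr at 0.24 and 0.067 FPKM. Each of these 3 is commonly used as a marker of such cells. Cxcl12, the niche chemokine gene, was higher, at 60.4 and 318 FPKM (1.52), and Nt5e was lower, at 1.86 and 1.01 FPKM (-1.37). Pdgfra was at 1.37 and 6.82 FPKM (0.86) and Pdgfrb at 21.8 and 74.0 FPKM (0.86). Of the 9 kept stromal genes 1 was higher and 1 lower (3 and 0 as deposited), with a median of -0.19. Of 8 leukocyte markers 6 were listed at 0 in both, Ptprc among them, and the list summed to 1.56 and 2.27 FPKM, nearly all of it Cd68. Endothelial, erythroid, skeletal muscle, epithelial and Schwann cell lists each summed to under 1 FPKM in both libraries, and of 3 chondrocyte markers only Sox9 was kept, at 4.25 and 2.76 FPKM (-1.34). Whether a different mix of stromal cells had a part in the Hox values was not tested. The floxed library had 1383 and the deficient library 1728 megabases of summed coverage. The mean read depth of the main Hoxa10 transcript was 55.9 and 57.5 reads per base, while that of Hoxc8 was 0.51 and 2.77, so the low genes rest on far fewer reads per base than Hoxa10.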

How the data were processed

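Total RNA gave 1 floxed and 1 deficient library, grouped by the genotype label. The files deposited by the authors hold FPKM per transcript, with confidence bounds and coverage, as other text in an attribute field. Per the submitters' processing notes, TopHat2 2.0.5, Cufflinks 2.0.2 and Cuffdiff 2.0.2 were used with mm9, with no role or order stated. FPKM depends on the library total, so log2(FPKM + 1) differences were centred on the median kept locus.

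The files carry no symbols, so genes were named from structure against GENCODE M21 (GRCm38), and no coordinate was converted. Of the 38 members, 5 were named by a whole chain of at least 2 introns and 20 by an intron with a terminal exon. In an addition to the rule, another 13 were named by the member's intron length at the reference distance from the introns of 5 to 8 named members. Against a wrong chromosome, 0 of 36943 chains and 4 of 2883 single introns matched. Members and lists were chosen with earlier results of these data known.

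Every Hox gene of at least 1 FPKM is named, and from each other list up to 4 kept genes with the largest fold. Exceptions are marked, and further list genes appear where they were called or bear on the cell type. The settings varied were the pseudocount (0.1 and 5 FPKM), the filter (none and 5 FPKM), deposited values, TPM, upper-quartile scaling, the most abundant transcript, all lengths, folds of 1.5 and 4, bounds apart, and whole-chain names. Naming, centring and calls were tested on simulated data. The simulated calls used a smaller pseudocount than the main setting, so calls at the main pseudocount were not tested there. The simulated loci for naming were reference structures moved by a constant distance, some with changed terminal exons. Python 3.11.15 and matplotlib 3.10.9 were used.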

Additional observations from a re-analysis of the deposited data

Results flagged for a closer look

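An unnamed locus inside the HoxB cluster, between Hoxb13 and Hoxb9, showed signal outside the comparisons above. It is a single exon of 483 nt with no strand, on chromosome 11 from 96109911 to 96110393 (mm9), at 15.1 FPKM in the floxed (deposited bounds 10.2 to 19.97) and 194 FPKM in the deficient library (177 to 212), a log2 difference of 2.74 relative to the median locus. Single exons could not be matched to a gene by structure.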

How the results depend on the processing

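Hoxc9 was higher under each of the 6 scalings, pseudocounts and transcript choices tried per gene, from 1.05 with a pseudocount of 5 FPKM to 3.46 with 0.1 FPKM. Hoxc10 fell just short of 2-fold with 5 FPKM (0.997). Hoxa7 did so with 5 FPKM (-0.81) and as deposited with 1 FPKM added (-0.94). The count of 2 higher genes became 1 with a pseudocount of 5 FPKM, at 4-fold and with whole-chain names only. It became 3 without a filter, as deposited and at 1.5-fold, and 4 with TPM. The count of 1 lower gene became 3 with a pseudocount of 0.1 FPKM and at 1.5-fold, and 2 with upper-quartile scaling. It became 0 with 5 FPKM, without a filter, as deposited, at 4-fold, with bounds apart and with whole-chain names. With a filter of 5 FPKM the 1 lower gene was Hoxa10, and Hoxa7 was not kept. Hoxa10 was also lower with 0.1 FPKM (-1.14) and upper-quartile scaling (-1.07), and Hoxa9 with 0.1 FPKM (-1.09). Hoxc13 passed 2-fold as deposited (1.64) and with TPM (1.63), and Hoxc8 with TPM (1.07). The median of 0.10 became 0.65 with a pseudocount of 0.1 FPKM, -0.11 with 5 FPKM, 0.43 with upper-quartile scaling, 0.93 with a filter of 5 FPKM, 0.95 as deposited, 1.07 with TPM and 2.19 with whole-chain names, which leave 1 gene at or above 1 FPKM. Without a filter the median over all 38 genes was -0.05, which is the centring itself, since 19 of them are at 0 in both libraries. The HoxC to HoxA ratio, with alternatives chosen after seeing the data, stayed between 4.70 and 7.74. Where the alternative itself does not show why a value moved, the cause was not tested. No paired analysis was possible because each group had 1 library, and none could be left out. The files give no fragment counts, so depth sets no interval here beyond the deposited bounds.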

Other observations

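The other unnamed locus inside a cluster with a value was a single exon of 1168 nt between Hoxc11 and Hoxc10, on chromosome 15 from 102793061 to 102794228 (mm9), at 0.69 FPKM in the floxed and 1.44 FPKM in the deficient library, with deposited bounds that overlap (0.13 to 1.25 and 0.64 to 2.24). The other 6 unnamed single exons in the clusters, of 68 to 110 nt, were listed at 0 in both libraries.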
